A study of Mus musculus with 2 samples.

Results

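CTCF binding was described at the HoxA, HoxB, HoxC and HoxD gene clusters of mouse thymocytes. CTCF, a zinc-finger protein, marks insulators and anchors the loops of chromatin. The members were the CTCF-enriched regions with a centre inside 1 of the 4 clusters or within 300 kb of it, and there were 137 of them among 53551 regions in the whole map. Of these, 32 lay inside the clusters and 105 in the flanks. The library came from Rag1-/- C57BL/6 mice of 4 to 8 weeks, from CD4-CD8- (double-negative, DN) thymocytes. Such cells are T cell precursors before the CD4 and CD8 surface proteins appear. RAG1 is needed to rearrange antigen receptor genes, and without it thymocytes halt at this stage. The labels also describe an input library of the same cells, which was not analysed here, so the values rest on 1 CTCF library without a replicate. The labels give neither the sex of the mice nor the number behind the library. A map of CTCF positions holds no marker of cell type, so the labelled cells could not be checked against their markers.

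Hox genes encode homeodomain transcription factors that set the identity of body segments along the axis from head to tail. In each cluster they stand in the order of their group number, and genes of low number act earlier and nearer the head than genes of high number. CTCF sites within Hox clusters are known as borders between active and Polycomb-repressed chromatin and as anchors of loops. In blood cells, some Hox genes act in stem and progenitor cells, among them Hoxa9, which is also linked to leukaemia, and Hoxb4, which expands blood stem cells.

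The 38 listed Hox genes fell into 4 clusters. In a RefSeq gene table, HoxA held 10 of them, in the order Hoxa13, Hoxa11, Hoxa10, Hoxa9, Hoxa7, Hoxa6, Hoxa5, Hoxa4, Hoxa3 and Hoxa2. HoxB held 10, in the order Hoxb13, Hoxb9, Hoxb8, Hoxb7, Hoxb6, Hoxb5, Hoxb3, Hoxb4, Hoxb2 and Hoxb1 by gene start. HoxC held 9, in the order Hoxc13, Hoxc12, Hoxc11, Hoxc10, Hoxc9, Hoxc8, Hoxc6, Hoxc5 and Hoxc4. HoxD held 9, in the order Hoxd13, Hoxd12, Hoxd11, Hoxd10, Hoxd9, Hoxd8, Hoxd3, Hoxd4 and Hoxd1, again by gene start. Sorting by start lists Hoxb3 before Hoxb4 and Hoxd3 before Hoxd4, out of the order of their group number. Group 13 genes act in the most posterior structures, such as the digits for Hoxa13 and Hoxd13, the prostate for Hoxb13 and hair and nails for Hoxc13. Genes at the other end act in the hindbrain and the pharyngeal arches, among them Hoxa2 and Hoxb1. The end of a cluster that carries its group 13 gene is called the Hox13 side below.

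The cluster bounds were set in mm9 at 52.10 to 52.22 Mb on chromosome 6 for HoxA, 96.05 to 96.23 Mb on chromosome 11 for HoxB, 102.75 to 102.87 Mb on chromosome 15 for HoxC and 74.50 to 74.61 Mb on chromosome 2 for HoxD. The Hox13 side is the end of higher coordinates for HoxA and the end of lower coordinates for the other 3. The gene table follows GRCm38, and positions were not converted, so no region was assigned to a gene and the bounds were not checked against mm9 gene models. The sequences of the regions were not read, for the same reason. The next protein-coding gene on the Hox13 side was Evx1 for HoxA and Evx2 for HoxD, both homeobox genes, Ttll6 for HoxB, which encodes a tubulin glutamylase, and Calcoco1 for HoxC. On the other side it was Skap2 for HoxA and Skap1 for HoxB, which encode adaptor proteins of immune cells, Smug1 for HoxC, a DNA repair glycosylase, and Mtx2 for HoxD, a mitochondrial import protein.

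The track lists bins of 25 bp within peaks, with no height, so a region could be described by its position and width alone. The read depth is unknown. Intervals below are exact 95% intervals that cover counting error only. Regions that cluster make the true error larger, and no p-value is given because there was 1 library.

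HoxD held sites of like width. It had 7 regions, of which 7 were 550 to 625 bp wide, and all 7 lay on the Hoxd13 side of the midpoint. From the Hoxd13 side they were 550 bp at chr2:74499774-74500323, 625 bp at chr2:74501499-74502123, 575 bp at chr2:74510924-74511498 and 600 bp at chr2:74524249-74524848. The remaining 3 were 550 bp at chr2:74531999-74532548, 600 bp at chr2:74540124-74540723 and 625 bp at chr2:74553699-74554323. After the first pair, which stood 1.18 kb apart, the gaps ran from 7.15 to 13.0 kb. Past the last region the track listed nothing for 248 kb, until a region of 575 bp at chr2:74802299-74802873 in the flank toward Mtx2. The empty part inside the cluster measured 55.7 kb, 50.6% of its span.

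HoxA had 6 regions, and they too stood toward its Hox13 side. Starting from the Hoxa13 side, they measured 575 bp at chr6:52206821-52207395, 625 bp at chr6:52190271-52190895, 325 bp at chr6:52178671-52178995 and 625 bp at chr6:52171496-52172120. The widest region of the cluster followed, 750 bp at chr6:52161271-52162020, and then the narrowest, 50 bp at chr6:52154421-52154470. Their gaps ran from 6.55 to 15.9 kb, and the longest lay at chr6:52190896-52206820. The series went on past the Hoxa13-side bound, where a region of 575 bp at chr6:52220371-52220945 had its centre 0.658 kb outside the cluster. At the other end, toward Hoxa2, the last 54.4 kb of the cluster held no region, and the next one, of 500 bp at chr6:51995471-51995970, stood 158 kb away in the flank toward Skap2.

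HoxB, the longest cluster at 180 kb, had 14 regions. Between the Hoxb13-side bound and the midpoint they were 600 bp at chr11:96059746-96060345, 75 bp at chr11:96085021-96085095, 425 bp at chr11:96085146-96085570, 600 bp at chr11:96096121-96096720, 825 bp at chr11:96101421-96102245, 325 bp at chr11:96117471-96117795 and 625 bp at chr11:96122746-96123370. Between the midpoint and the Hoxb1 end they were 625 bp at chr11:96139921-96140545, 25 bp at chr11:96145396-96145420, 475 bp at chr11:96145546-96146020, 625 bp at chr11:96155721-96156345, 25 bp at chr11:96156896-96156920, 625 bp at chr11:96164221-96164845 and 600 bp at chr11:96172721-96173320. Of its 14 regions, 4 had another within 200 bp, and 0 regions did in the other 3 clusters. Over all 4 clusters that was 12.5% (3.51 to 29.0%), near the 16.2% of the flanks and the 20.7% of the map. The longest gap inside, 24.7 kb, lay at chr11:96060346-96085020 near the Hoxb13 side. No region was listed in the last 56.7 kb toward Hoxb1, and the gap there extended to 95.6 kb, ending at a region of 600 bp at chr11:96268896-96269495. On the Hoxb13 side the gap out of the cluster was 52.4 kb, to a region of 600 bp at chr11:96006771-96007370.

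HoxC had nothing listed in the first 46.5 kb from its Hoxc13-side bound, the longest such stretch of the 4 clusters. Its 5 regions had centres from 39.1% to 78.4% of the span. They measured 825 bp at chr15:102796455-102797279, 325 bp at chr15:102801230-102801554, 125 bp at chr15:102805855-102805979, 625 bp at chr15:102817680-102818304 and 550 bp at chr15:102843830-102844379. The last region was the only one of all 4 clusters that lay in the last 25% of a span, on the Hoxc4 side. The longest gap inside, 25.5 kb, preceded it at chr15:102818305-102843829. HoxC was set apart on both sides, by 158 kb to a region of 325 bp at chr15:102637730-102638054 toward Calcoco1 and by 117 kb to one of 525 bp at chr15:102961105-102961629 toward Smug1.

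**Figure D1:**
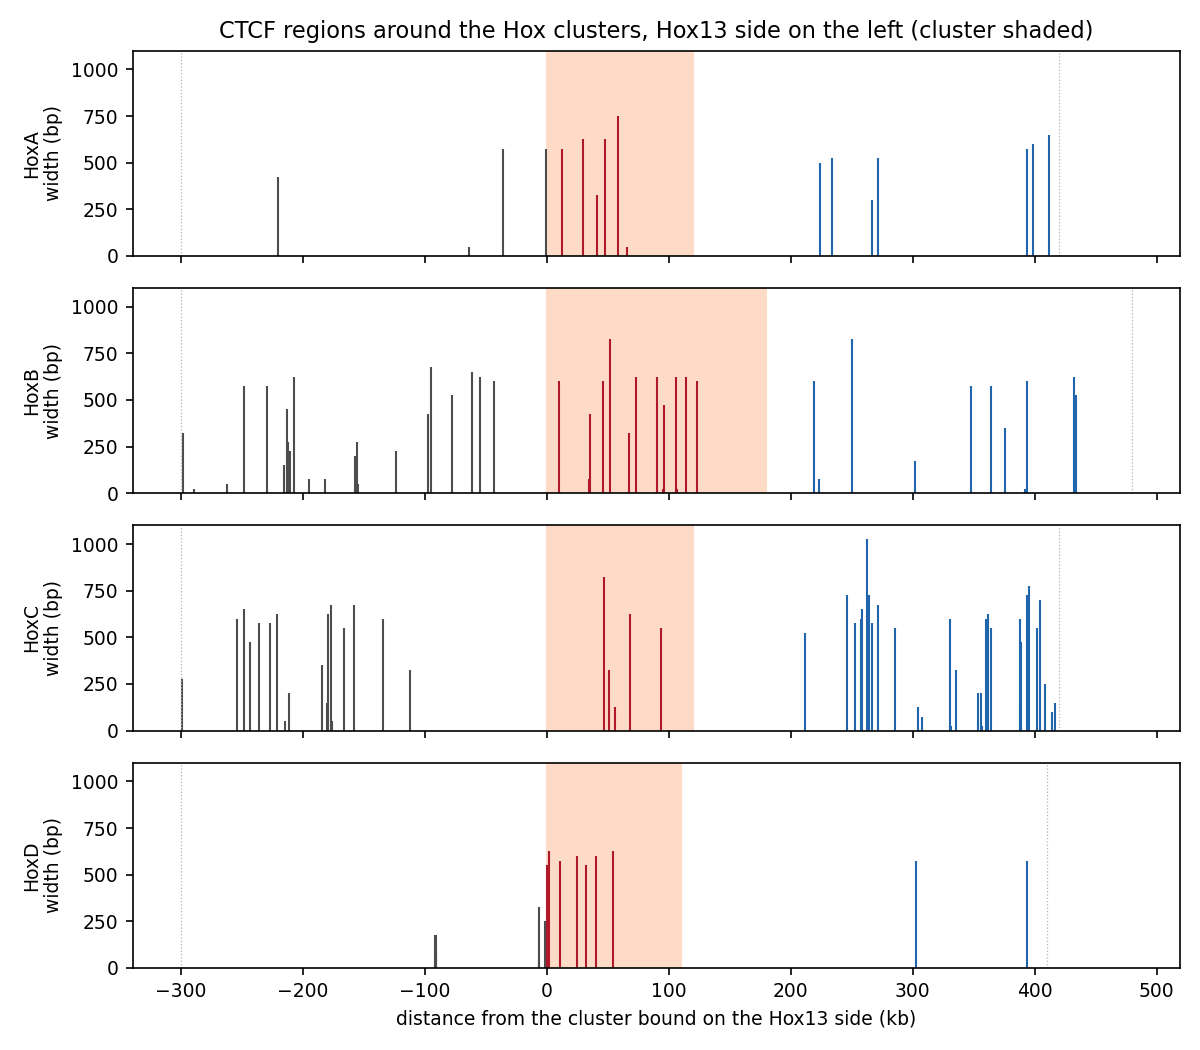
Each vertical line is a CTCF region, at its distance in kb from the cluster bound on the Hox13 side and with its width in bp as its height, for HoxA, HoxB, HoxC and HoxD. Red lines lie inside the shaded cluster, grey lines in the flank on the Hox13 side and blue lines in the other flank, and dotted lines mark the ends of the 300-kb flanks. In all 4 panels the part of the cluster farthest from the Hox13 side is empty, from 25.6 kb in HoxC to 56.7 kb in HoxB. In HoxC the empty part at the Hox13 side is longer, at 46.5 kb. The HoxC and HoxB flanks hold 49 and 35 regions against 11 and 10 at HoxA and HoxD.

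CTCF regions were listed unevenly along the clusters. Split at the midpoint of each span, 22 regions lay on the Hox13 side and 10 on the other. The counts were 5 against 1 in HoxA, 7 against 7 in HoxB, 3 against 2 in HoxC and 7 against 0 in HoxD. The ratio over all 4 was 2.20 (interval 0.9997 to 5.20), an interval that still held 1. In HoxD the exact interval of the ratio began at 1.44 and had no upper limit, since 1 side held 0 regions. Widened for 6 comparisons by Bonferroni, the HoxD interval began at 0.842 and held 1. Against a floor of 3 regions set in place of the 0, the ratio was 2.33. With bounds 10 kb inward the HoxD interval began at 0.916 and held 1. HoxA gave 5.00 (0.559 to 236), HoxB 1.00 (0.299 to 3.34) and HoxC 1.50 (0.172 to 18.0). Without HoxB the ratio over the other 3 was 5.00 (1.41 to 26.9), and without HoxD it was 1.50 (0.630 to 3.73).

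Regions were fewest at the far end. Counted in successive stretches of 25% of the span from the Hox13 side, a split chosen after the positions were seen, the 4 clusters together held 9, 13, 9 and 1 regions. The last stretch had 0 regions in HoxA, HoxB and HoxD and 1 in HoxC. The exact intervals of the counts of 0 reached 12.3 regions per 100 kb in HoxA, 8.20 in HoxB and 13.4 in HoxD. The last stretch had 0.755 regions per 100 kb (interval 0.0191 to 4.21), the second 9.81 (5.22 to 16.8) and the stretches on either side of the second 6.79 each (3.11 to 12.9). The interval of the last overlaps that of these 2. HoxC lacked regions in the first stretch as well, where HoxA had 2, HoxB had 3 and HoxD had 4. Its interval there, 0 to 12.3 regions per 100 kb, holds the 6.67 of HoxA and HoxB. It also overlaps that of HoxD, 3.96 to 37.2. By gene order, the end away from Hox13 is the one toward Hoxa2, Hoxb1, Hoxc4 and Hoxd1, but which genes lie in the stretches without regions was not tested.

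**Figure D2:**
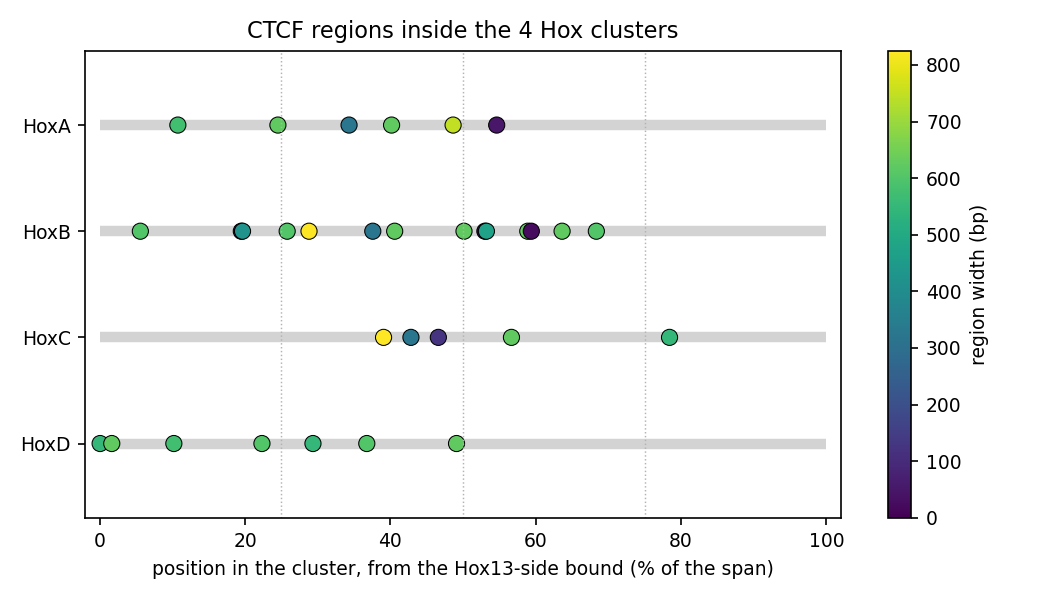
Each circle is 1 of the 32 CTCF regions inside a cluster, at its position in % of the span from the Hox13-side bound and coloured by its width in bp. Dotted lines mark every 25% of the span, and 1 circle, in HoxC, lies beyond the last of them.

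The gap that led out of a cluster on the side away from Hox13 was far longer than the gaps inside, which have to fit within the cluster. It measured 248 kb at HoxD, 158 kb at HoxA, 117 kb at HoxC and 95.6 kb at HoxB, or 30.3, 16.7, 14.6 and 13.1 times the median gap inside the same cluster. Gaps of such length were not rare in the map, where the share of all 53528 gaps at least as long was 3.34% for HoxD, 5.89% for HoxA, 8.67% for HoxC and 10.8% for HoxB. These shares count each gap once, but a fixed bound falls more often in a long gap than in a short one. They therefore understate how common gaps of this length are at a bound. At the Hox13 side the clusters differed. The gap out of the cluster was 1.30 kb at HoxD and 13.0 kb at HoxA, 52.4 kb at HoxB and 158 kb at HoxC. Beyond the HoxD bound, 8 narrow regions of 25 to 325 bp stood on the Evx2 side, 4 of them within 50 kb and 4 from 50 to 100 kb away. Not all of these stood as separate sites. Of the 8 gaps in the HoxD flanks, 4 were of 200 bp or less, all on the Evx2 side, so the count of 8 depends on how regions are joined.

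Most gaps inside the clusters measured between 1 and 20 kb, a range that was not in the plan, which named the median gap. Of the 28 gaps between neighbours inside, 23 measured over 1 and up to 20 kb, which was 82.1% (interval 63.1 to 93.9%). In the flanks the share was 57.7% (47.3 to 67.7%), whose interval overlaps that inside, and in the whole map it was 41.1%. By cluster, 5 of 5 gaps in HoxA, 9 of 13 in HoxB, 3 of 4 in HoxC and 6 of 6 in HoxD were of that size. Single gaps inside ranged from 0.05 to 24.7 kb in HoxB and from 3.95 to 25.5 kb in HoxC. The median gap was 9.48 kb in HoxA, 7.30 kb in HoxB, 8.00 kb in HoxC and 8.19 kb in HoxD. Over all 4 it was 7.73 kb (4.95 to 11.3 kb), against 4.90 kb (3.93 to 8.90 kb) in the flanks and 14.6 kb in the map. Of the 105 flank regions, 49 came from the HoxC flanks, where the median gap was 4.15 kb, against 26.9 kb in the HoxA flanks, 12.3 kb in the HoxB flanks and 0.375 kb in the HoxD flanks, which had 8 gaps. Flanks also held gaps over 50 kb, 5 of 97, and the inside held 0 of 28, but a gap inside a cluster cannot exceed the cluster. The same limit applies to the share from 1 to 20 kb and to the median gap. The long gaps that lead out of the clusters were left out of the inside values, while the map keeps gaps of every length.

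**Figure D3:**
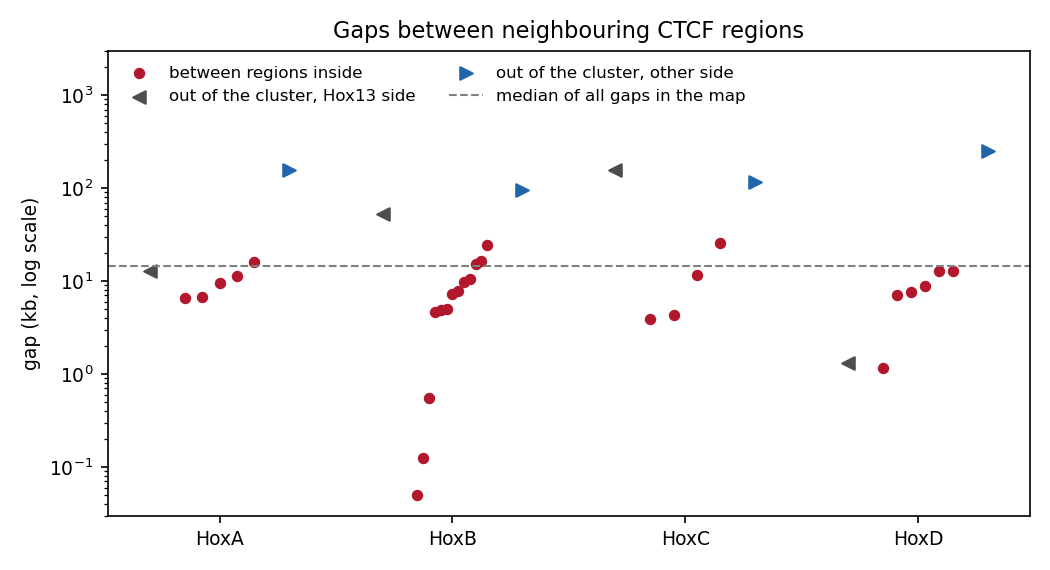
Gaps between neighbouring CTCF regions in kb on a log axis, for each Hox cluster. Red points are gaps between regions inside, grey and blue triangles are the gaps that lead out of the cluster on the Hox13 side and on the other side, and the dashed line is the median of all gaps in the map, 14.6 kb. The blue triangles, from 95.6 to 248 kb, lie above every red point.

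By number, the 4 clusters could not be told apart. HoxB had 7.78 regions per 100 kb (interval 4.25 to 13.0), HoxD 6.36 (2.56 to 13.1), HoxA 5.00 (1.83 to 10.9) and HoxC 4.17 (1.35 to 9.72). Each neighbouring pair in this order overlapped, and among 6 pairs the ratio that lay farthest from 1 was HoxB to HoxC, 1.87 (0.466 to 10.6 once widened for 6 pairs). Of the 6 widened intervals, 0 left out 1, and likewise 0 of 6 for regions of 500 bp or more. This does not show that the densities were equal, since a ratio of 10.6 lies within the interval.

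Against the map, all 4 clusters were on the rich side, but none was extreme in number. Together they held 6.04 regions per 100 kb (4.13 to 8.52), 2.90 times (1.98 to 4.09) the 2.08 per 100 kb of chromosomes 1 to 19 and X. The single ratios to the map were 3.73 (2.04 to 6.27) for HoxB and 3.06 (1.23 to 6.29) for HoxD. Widened for 6 comparisons, the HoxB interval was 1.63 to 7.25, and that of HoxD, 0.859 to 7.61, held 1. HoxA, at 2.40 (0.881 to 5.22), and HoxC, at 2.00 (0.649 to 4.67), did not leave 1. When the map was cut into windows of the same length, 4.02% of windows held at least the 14 regions of HoxB, 9.44% at least the 7 of HoxD, 15.5% at least the 6 of HoxA and 20.7% at least the 5 of HoxC. Chromosome 11, which carries HoxB, had 3.39 regions per 100 kb, and HoxB exceeded it 2.29-fold (1.25 to 3.85).

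Whether the clusters exceeded their own flanks depended on the cluster. HoxD had 3.82 times (1.23 to 11.1) the density of its flanks, the one cluster whose interval left out 1. Widened for 6 comparisons, the HoxD interval was 0.835 to 15.6 and held 1. HoxA had 2.73 times (0.828 to 8.05) and HoxB 1.33 times (0.663 to 2.54), while HoxC had 0.510 times (0.159 to 1.27). The HoxC direction turned with the length of the flanks, since flanks of 100 kb gave 8.33 (0.932 to 394). HoxA gave 1.59 (0.561 to 3.65) with flanks of 1 Mb. Summed, the clusters had 1.38 times (0.899 to 2.07) the 4.38 regions per 100 kb of the flanks. Without HoxC the ratio was 2.12 (1.29 to 3.41). The parts on the Hox13 side of the midpoint, at 8.30 regions per 100 kb, exceeded the flanks 1.90-fold (1.14 to 3.03). The parts on the other side, at 3.77, had 0.863 times (0.402 to 1.65) the density of the flanks.

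The size of the HoxD ratio depended on its bounds and flanks. Its first region, of 550 bp, had its centre 0.0485 kb inside the bound, and the nearest one outside, of 250 bp, lay 1.65 kb beyond it. With both bounds of each cluster moved outward by 10 kb the HoxD ratio was 8.46 (2.87 to 27.9), and inward by 10 kb it was 2.78 (0.767 to 8.47). It was 6.36 (1.83 to 22.9) with regions joined within 200 bp, 7.64 (2.09 to 30.5) within 1000 bp and 1.59 (0.491 to 5.02) with flanks of 100 kb.

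**Figure D4:**
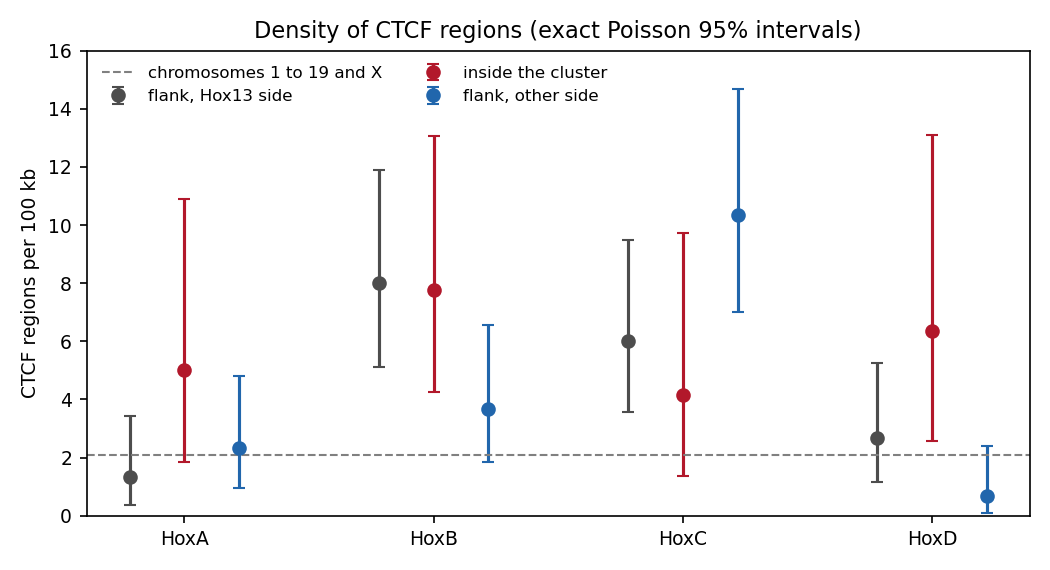
CTCF regions per 100 kb in the flank on the Hox13 side (grey), inside the cluster (red) and in the flank on the other side (blue), for each Hox cluster, with exact Poisson 95% intervals. The dashed line is the density over chromosomes 1 to 19 and X, 2.08 per 100 kb, and the intervals of all 4 clusters overlap one another.

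The flanks held larger counts than the clusters, and some pairs of them separated. HoxC had 49 regions in 600 kb of flank and HoxB had 35, compared with 11 at HoxA and 10 at HoxD. Of the 6 pairs of flanks, 4 differed beyond the widened interval, each of them a crowded flank against a sparse one. For regions of 500 bp or more, 3 of 6 did, since HoxA to HoxB gave 0.533 (0.138 to 1.78 once widened). HoxC flanks exceeded HoxD flanks 4.90-fold (2.01 to 14.5) and HoxA flanks were 0.224 times as dense as HoxC flanks (0.0798 to 0.532). HoxB exceeded HoxD 3.50-fold (1.37 to 10.7), and HoxA had 0.314 times the density of HoxB (0.109 to 0.780). The pairs HoxB and HoxC (0.714, 0.384 to 1.30) and HoxA and HoxD (1.10, 0.311 to 3.98) did not separate. Flanks of HoxB and HoxC had 2.80 (1.95 to 3.90) and 3.92 (2.90 to 5.18) times the density of the map, and those of HoxA and HoxD 0.880 (0.439 to 1.57) and 0.800 (0.384 to 1.47) times.

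Of the 4 clusters, HoxB was the one whose interval for the ratio of its 2 flanks left out 1, before any widening. Widened for 6 comparisons, that HoxB interval was 0.818 to 6.58 and held 1. For regions of 500 bp or more, HoxB had 8 toward Ttll6 and 7 toward Skap1, a ratio of 1.14 whose interval held 1. The difference between the HoxB flanks was therefore not seen among wide regions. The HoxC flank toward Smug1 held 31 regions, which stood within 206 kb, and the one toward Calcoco1 held 18, a ratio of 0.581 (0.306 to 1.07) of the latter to the former. The widest flank region of all, 1025 bp at chr15:103012080-103013104, lay toward Smug1. HoxB had 24 regions toward Ttll6 and 11 toward Skap1, a ratio of 2.18 (1.03 to 4.93), and its widest flank region, 825 bp at chr11:96299721-96300545, lay toward Skap1. HoxA had 4 toward Evx1 and 7 toward Skap2 (0.571, 0.123 to 2.25), with the widest, 650 bp, at chr6:51807721-51808370. HoxD had 8 toward Evx2 and 2 toward Mtx2 (4.00, 0.798 to 38.7), and the 2 of these, both of 575 bp, were its widest. The first 50 kb past the clusters on the side away from Hox13 held 2 regions over all 4, both at HoxB, whereas the 50 kb from 250 to 300 kb away held 16, of which 10 were at HoxC.

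Regions inside the clusters were mostly of full width. Of the 32, 22 measured 500 bp or more, which was 68.8% (interval 49.99 to 83.9%), against 51.4% (41.5 to 61.3%) of flank regions and 46.6% (46.2 to 47.0%) of the map. The inside interval overlaps that of the flanks. It lies just above the share in the map, but it held that share without HoxD (38.7 to 78.9%) and with bounds 10 kb outward, at 62.2% (44.8 to 77.5%). The counts were 7 of 7 in HoxD (59.0 to 100%), 4 of 6 in HoxA, 3 of 5 in HoxC and 8 of 14 in HoxB. The median width was 600 bp (475 to 625 bp) inside, 525 bp (325 to 575 bp) in the flanks and 425 bp in the map. By cluster it was 600 bp in HoxA, HoxB and HoxD and 550 bp in HoxC. Of the 32, 4 were 100 bp or narrower, 1 in HoxA and 3 in HoxB. That was 12.5% (3.51 to 29.0%), an interval that holds the share of the flanks, 20 of 105, and the 22.3% of the map.

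Counting only these wide regions sharpened the contrast at HoxD and in the sum. HoxD had 7 wide regions inside and 2 in its flanks, a ratio of 19.1 (3.63 to 188), and its flank toward Evx2 had 0 of 8. The 0 of 8 and the ratio depend on how regions are joined. Joined within 200 bp, the pieces from chr2:74493449 to chr2:74493998 in that flank would form a region of over 500 bp. The ratio of wide regions after such joining was not computed. Over all 4 clusters the wide regions were 1.84 times (1.07 to 3.08) as dense inside as in the flanks, and 4.28 times (2.68 to 6.48) as dense as in the map. The values were 2.50 (0.551 to 9.33) for HoxA, 1.78 (0.653 to 4.47) for HoxB and 0.517 (0.101 to 1.67) for HoxC. Among windows of the same length, 1.25% held at least the 7 wide regions of HoxD, 3.11% at least the 8 of HoxB, 10.0% at least the 4 of HoxA and 17.7% at least the 3 of HoxC. CTCF regions covered 3.75% of HoxD, 3.60% of HoxB, 2.46% of HoxA and 2.04% of HoxC, and 0.803% of the map.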

How the data were processed

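CTCF ChIP-seq of DN thymocytes was deposited by the authors as 1 browser track that holds positions of peak bins and no other measure. Its header gives a name and a colour, and each of its 825544 bins measured 25 bp. Bowtie and mm9 are named in the submitters' processing notes. The peak caller, with its threshold and any use of the input, is not given in the sources used here. Thymocytes were fixed with 1% formaldehyde for 10 minutes and libraries amplified for 15 cycles, per the labels' protocols.

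Touching bins were joined into regions, positions were made 1-based, and a region belonged where its centre lay. Counts and shares have exact intervals (Poisson and binomial). That of a density ratio was taken from the binomial interval of the share of regions, widened for 6 pairs by Bonferroni. The interval of a median came from order statistics. Windows tiled each chromosome from its first region. The gene table (RefSeq, GRCm38) gave names and order only. Every region inside a cluster, the nearest region beyond each end, the longest gap and the widest flank regions were named by rule. The clusters and lists were chosen with earlier results of these data known. The code was tested on simulated data. The software was pandas 2.3.3, scipy 1.17.1, numpy 2.4.6 and matplotlib 3.10.9 under Python 3.11.15.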

Additional observations from a re-analysis of the deposited data

How the results depend on the processing

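Over 28 results, 222 alternative values were computed. Of these, 193 kept their direction, their side of a ratio of 1 or their size, 8 moved, 7 changed direction, 11 gave an interval that newly left out 1 and 3 an interval that newly held it. The ratio of the Hox13 side of the midpoint to the other side, over all 4 clusters, was 2.33 with regions joined within 200 bp, 2.63 within 1000 bp, 3.0 without regions of 100 bp or less, 2.70 with bounds 10 kb outward and 5.00 without HoxB. It was 0.50 in HoxC for regions of 500 bp or more. Against a floor of 3 regions set in place of the 0, it was 1.67 in HoxD with bounds 10 kb inward, where the interval began at 0.916. The ratio of inside to flanks over all 4 was 1.84 for regions of 500 bp or more, 1.57 with bounds 10 kb inward, 2.30 with flanks of 100 kb and 2.12 without HoxC. For single clusters it was 3.60 in HoxA and 2.78 in HoxD with bounds 10 kb inward, 1.59 in HoxD and 8.33 in HoxC with flanks of 100 kb, a change of direction for HoxC, and 0.390 in HoxC with bounds 10 kb outward.

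The ratio of HoxB to HoxD, 1.22, was 0.960 with joining within 1000 bp or without regions of 100 bp or less, 0.698 for regions of 500 bp or more and 0.827 with bounds 10 kb outward. That of HoxA to HoxD was 1.08 with bounds 10 kb inward. HoxD held 11 regions with bounds 10 kb outward, and HoxB held 8 and HoxC 3 of 500 bp or more. In the flanks, 61.6% of regions were 500 bp or wider with joining within 1000 bp and 63.5% without those of 100 bp or less. For regions of 500 bp or more, the median flank width was 600 bp and the median gaps were 12.9 kb inside and 11.5 kb in the flanks. The causes were not tested, beyond the fewer or other regions that each setting counts. Leaving out single clusters was planned for the ratio of inside to flanks and added after the data were seen for the other values. No paired analysis was possible because the map rests on 1 library. Since the depth is unknown, sites under the authors' threshold cannot be seen, and a stretch without regions does not show that CTCF was absent.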
